A study of Rattus norvegicus with 21 samples.

Results

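Transcripts of proteasome subunits, their activators and their assembly factors were followed through 21 RNA sequencing libraries of rat pancreatic islets. The genes were taken by name, as table entries whose symbol begins with Psma to Psmg and a digit, leaving out the inducible Psmb8 and Psmb9, with at least 1 CPM (a count for every M counts of the library) in 3 or more libraries. Of 17025 genes in the table, 47 matched by name and 44 met the minimum, and all 44 could be tested. The 3 below it were Psma3l, with no count in 20 libraries, the testis-type Psma8, with at most 4 counts in a library, and the thymus-type Psmb11, with at most 12. Of the 44, Psmc3ip shares the name only: it encodes a partner of meiotic recombination proteins and is no proteasome subunit. It stays among the 44 in the counts, sums and medians of members, and its own values are given apart where it is named.

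The islets came from Sprague Dawley rats, 8 rats pooled in each of 3 preparations, and each pool was divided over the culture conditions. Control medium held 11 mM glucose without palmitate, glucolipotoxic (GLT) medium held 27 mM glucose with 300 µM palmitate, and compounds D and E, for which the labels give neither structure nor target, were added to GLT medium at 300 nM. Conditions 1 (3 h control), 4 (24 h GLT), 5 (3 h GLT with compound D) and 6 (24 h GLT with compound D) had 3 libraries each, 1 per preparation. Condition 8 (24 h GLT with compound E) had 2 libraries, from preparations 1 and 2, and condition 7 (3 h GLT with compound E) had 1, from preparation 2. Conditions 2 and 3, with 3 libraries each, are named in opposite ways by the sources: the sample records give 24 h control for condition 2 and 3 h GLT for condition 3, and the deposited sample sheet gives 3 h GLT for condition 2 and 24 h control for condition 3. These 6 libraries are therefore called by condition number, and each count of members that uses them is given for both.

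The proteasome degrades proteins tagged with ubiquitin. Its 20S core is a barrel of stacked rings, in which the alpha rings gate the entry and the beta rings carry the cutting sites, and the 19S particle on its ends binds the ubiquitin chain, removes it and threads the protein in by means of an ATPase ring. Insulin-producing beta cells make large amounts of secretory protein in the endoplasmic reticulum, and proteins that misfold there are passed to the proteasome. In mammalian cells the transcription factor Nfe2l1 is known to raise proteasome genes together when proteasome activity falls short, through the antioxidant response element.

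Libraries held 22.3 to 40.2 M counts in genes (median 27.8 M), and the insulin genes took 9.32% to 45.9% of them. The condition 3 library of preparation 2 stood apart: 23.4% of its reads had more than 1 alignment, against 4.92% to 8.51% in the other libraries, and ribosomal Rn45s took 0.0333% of its counts, against 1.37% to 7.88%. Among the members it had low values of Psmb6 (2.70 CPM) and Psme2 (2.43 CPM), and it held 0.301 CPM of the assembly chaperone gene Pomp. Markers of other cells moved between conditions. The summed level of 3 red cell genes was 3.10 to 12.4 CPM in the conditions that both sources name as 3 h and 0.188 to 1.06 CPM in those both name as 24 h, and it was 8.06 to 12.3 CPM in condition 2 and 0.430 to 0.571 CPM in condition 3. On these values conditions 2 and 3 lie with the times of the sample sheet and against those of the sample records. No library was regrouped by its values.

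The promoters of 4 members are shown because these genes passed the test in each of the comparisons of 24 h GLT with conditions 3 and 2 and of 24 h GLT with compound D with condition 2. Each is the RefSeq sequence (GRCr8) of the 250 bases before the gene's start, read 5′ to 3′ along the gene, with motif matches in capitals.
Psmd1, chr9:94157721-94157970, plus strand: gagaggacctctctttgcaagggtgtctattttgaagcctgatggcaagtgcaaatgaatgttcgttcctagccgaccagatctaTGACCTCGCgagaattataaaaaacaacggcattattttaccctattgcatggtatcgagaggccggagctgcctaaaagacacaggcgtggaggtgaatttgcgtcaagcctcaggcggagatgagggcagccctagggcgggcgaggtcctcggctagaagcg
Psmd11, chr10:65932093-65932342, plus strand: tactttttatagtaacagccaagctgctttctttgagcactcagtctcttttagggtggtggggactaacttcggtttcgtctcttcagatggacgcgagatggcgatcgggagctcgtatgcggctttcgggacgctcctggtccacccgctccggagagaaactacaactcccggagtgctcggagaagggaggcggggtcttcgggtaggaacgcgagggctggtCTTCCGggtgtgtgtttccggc
Psma1, chr1:177887858-177888107, minus strand: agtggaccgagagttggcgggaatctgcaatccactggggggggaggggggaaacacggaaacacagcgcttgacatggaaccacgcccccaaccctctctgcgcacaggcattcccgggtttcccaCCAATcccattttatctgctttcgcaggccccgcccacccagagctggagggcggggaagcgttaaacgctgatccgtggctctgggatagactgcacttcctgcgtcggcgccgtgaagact
Psmd5, chr3:38548491-38548740, minus strand: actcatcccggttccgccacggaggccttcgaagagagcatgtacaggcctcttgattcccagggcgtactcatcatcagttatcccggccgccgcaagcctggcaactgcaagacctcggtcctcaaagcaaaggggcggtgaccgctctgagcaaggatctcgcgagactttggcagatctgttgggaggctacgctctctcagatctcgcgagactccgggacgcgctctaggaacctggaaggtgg
The capitals mark TGACNNNGC, the core of the antioxidant response element, in Psmd1 (TGACCTCGC), the ETS core CGGAAG in Psmd11 (as CTTCCG on the other strand), and the NF-Y box CCAAT in Psma1, while the Psmd5 window holds none of the 3.

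These motifs were searched on both strands in 250 bases before to 50 after the start, each counted on its own even where matches overlap, in the 40 of 44 members with a RefSeq promoter. Psma7, Psmd6, Psmd12 and Psmd14 had no entry. TGACNNNGC was in 8 of the 40 (20%), among them Psmb2, Psmb5, Psmb6, Psmd1 and Psmd3, against 12.2% of all 27457 rat promoters and 14.6% of those of tested genes. CCAAT was in 19 (47.5%), against 37.7% and 37.2%. CGGAAG was in 21 (52.5%), against 17.4% and 29.4%. The name-only Psmc3ip was among both the 19 and the 21. The members with and without a motif had similar median differences between conditions 4 and 3 on the log2 scale: 0.40 and 0.37 for TGACNNNGC, 0.38 and 0.37 for CCAAT, and 0.38 and 0.35 for CGGAAG. Between conditions 4 and 2 the medians were 0.21 with TGACNNNGC and 0.32 without it. A match is a string of letters, not a bound site.

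**Figure D1:**
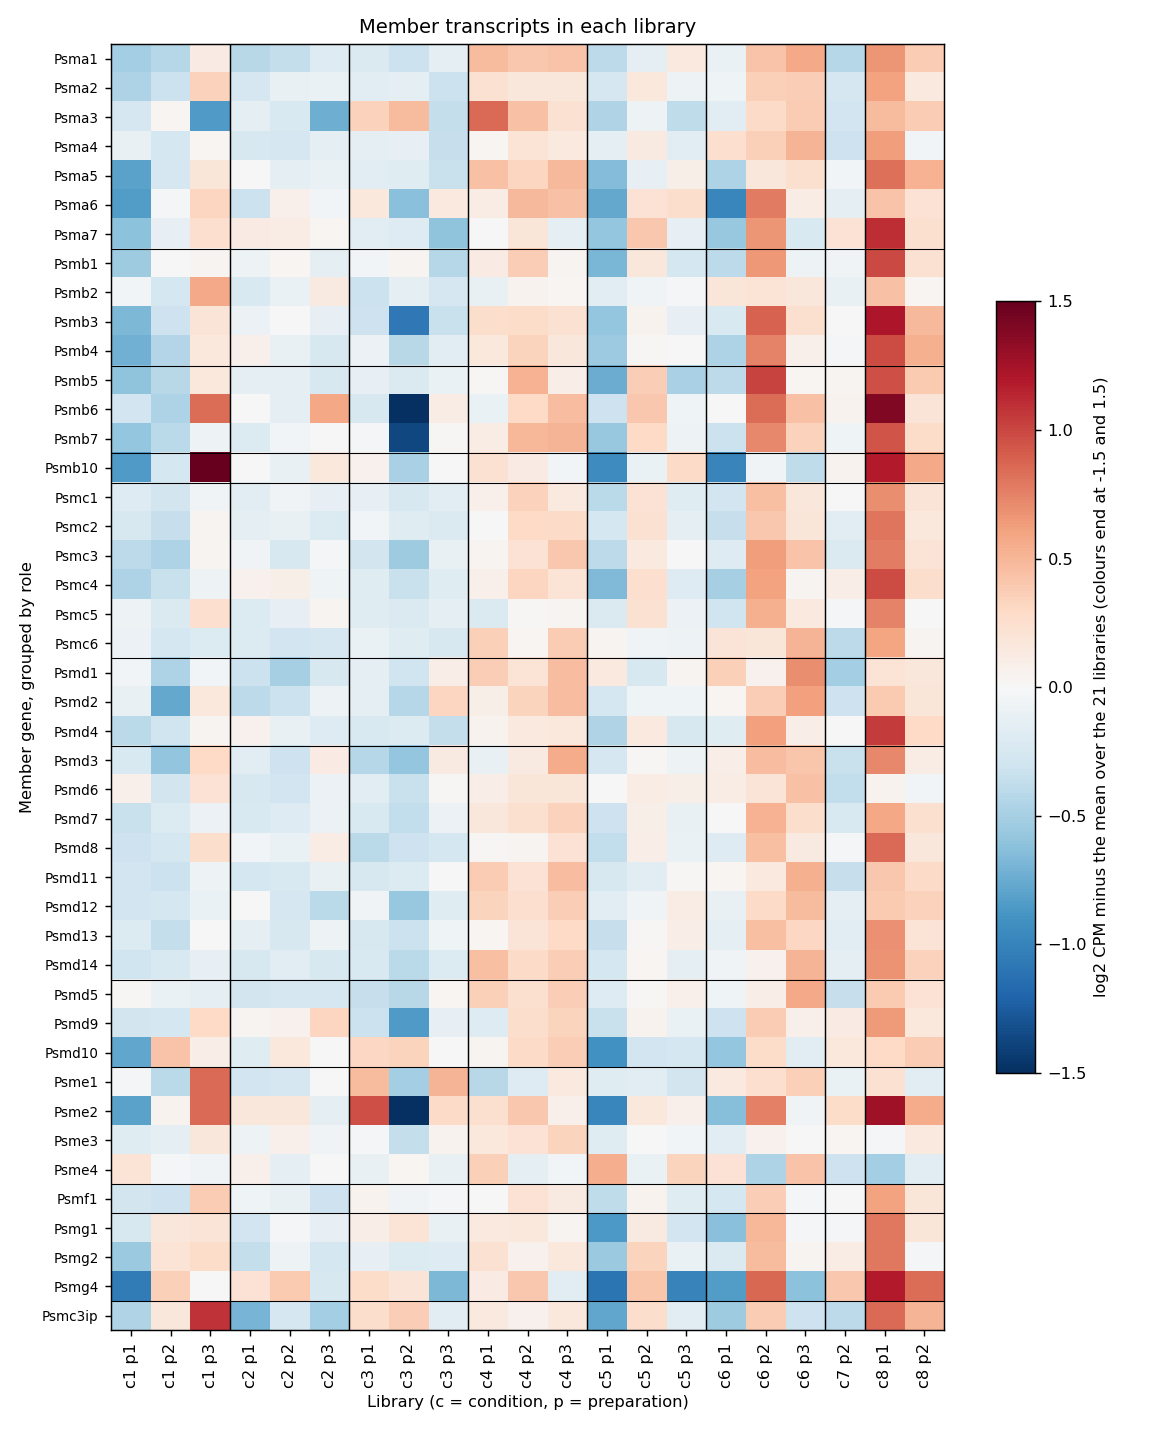
Each cell is the log2 CPM of 1 member in 1 library minus that member's mean over the 21 libraries, with members in rows by role and libraries in columns by condition and preparation. The 3 libraries of condition 4 are red across most 20S and 19S genes, conditions 1 to 3 are mostly blue apart from the preparation 3 library of condition 1, and the preparation 1 library of condition 8 is the reddest column.

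Summed over the 44 genes, member transcripts made up 5179 ± 227 CPM in 24 h GLT (SD, n = 3). The sum was 4032 ± 728 CPM in 3 h control (n = 3), 4020 ± 104 in condition 2 (n = 3) and 3924 ± 360 in condition 3 (n = 3), so that every 24 h GLT library, at 4926 to 5367 CPM, lay above all of these 9 libraries, of which the highest held 4872 CPM. With compound D the sum was 4190 ± 513 CPM at 3 h (n = 3) and 5177 ± 992 CPM at 24 h (n = 3), the 24 h libraries holding 4057, 5949 and 5524 CPM in preparations 1, 2 and 3. With compound E it was 3950 CPM in the single 3 h library, and 6884 and 5107 CPM in the 24 h libraries. In bulk RNA these sums cannot tell a change of RNA per cell from a change in the cells present.

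**Figure D2:**
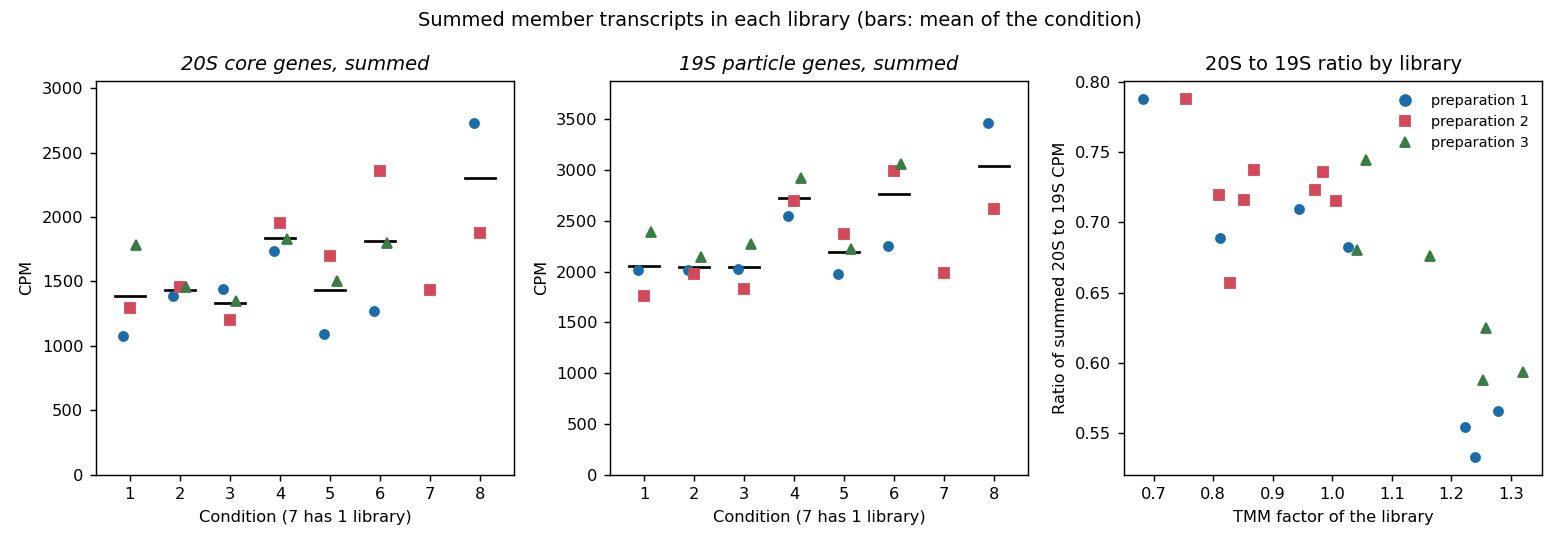
The left and middle panels give the summed CPM of the 14 constitutive 20S genes and the 17 genes of the 19S particle in each library by condition, with bars at the condition means, and the right panel gives the ratio of the sums against the library's TMM scaling factor. Both sums are higher in condition 4 (means 1839 and 2724 CPM) than in conditions 1 to 3 (1329 to 1435 and 2043 to 2058 CPM), and ratios below 0.6 occur at TMM factors of 1.22 to 1.32.

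Between condition 4 and condition 3, which compares 24 h GLT with 24 h control by the sample sheet and with 3 h GLT by the sample records, 5 members were higher and 0 lower in edgeR's quasi-likelihood test with Benjamini-Hochberg adjustment, against 3.31% of all tested genes called higher. They were Psma1, Psmd1, Psmd5, Psmd11 and Psmd14. Between condition 4 and condition 2, where the readings change places, 7 members were higher and 0 lower, against 3.63% of tested genes: these 5 with Psma3 and Psmc6. Over all 44 members the median log2 difference was 0.37 (1.30-fold) against condition 3 and 0.32 (1.25-fold) against condition 2, while the medians over all tested genes were 0.00 and -0.02. Of the 44, 41 had a fitted difference above 0 in each comparison, where 49.5% and 48.7% of tested genes had, and 32 and 34 were higher in every preparation, where 27.4% and 28.9% of tested genes were. The comparisons share the condition 4 libraries.

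Psmd11 encodes a lid subunit that holds the 19S particle to the core. In preparations 1, 2 and 3 it stood at 193, 172 and 203 CPM in condition 4, at 125, 128 and 148 CPM in condition 3, at 123, 126 and 136 CPM in condition 2, and at 121, 118 and 140 CPM in 3 h control. Its condition 4 libraries lay above all 9 of the others, and it rose by 0.50 (log2, SE 0.11, adjusted p = 0.0195) against condition 3 and by 0.56 (SE 0.11, adjusted p = 0.00902) against condition 2. Psmd11 was also the one member whose libraries of 24 h GLT, with or without a compound, all lay above every library of conditions 1, 2, 3, 5 and 7, which 0.39% of tested genes did.

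Psma1, a subunit of the alpha ring, stood at 253, 241 and 244 CPM in condition 4, at 157, 145 and 165 CPM in condition 3, and at 136, 141 and 159 CPM in condition 2. The condition 4 libraries were close to each other and above both groups: the difference was 0.67 (SE 0.16, adjusted p = 0.0284) against condition 3 and 0.77 (SE 0.16, adjusted p = 0.0114) against condition 2. Psmd1, the large scaffold subunit of the base, stood at 304, 271 and 325 CPM in condition 4, at 216, 192 and 253 CPM in condition 3 and at 188, 167 and 200 CPM in condition 2. Its groups did not overlap either, and it rose by 0.45 (SE 0.13, adjusted p = 0.0474) and by 0.70 (SE 0.13, adjusted p = 0.00471), the difference to condition 2 being 0.69, 0.70 and 0.70 in preparations 1, 2 and 3.

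Psmd14 is the deubiquitinase of the lid, which cuts the ubiquitin chain from the protein to be degraded. It stood at 108, 95.7 and 101 CPM in condition 4, against 67.3, 59.4 and 68.5 CPM in condition 3 and 66.4, 70.8 and 66.5 CPM in condition 2, a difference of 0.65 (SE 0.15, adjusted p = 0.0198) and of 0.58 (SE 0.15, adjusted p = 0.0247). Psmd5 is a chaperone that holds ATPase subunits while the base is built. It stood at 67.5, 62.6 and 68.2 CPM in condition 4, against 41.4, 39.5 and 53.9 CPM in condition 3 and 43.6, 44.4 and 44.4 CPM in condition 2, and rose by 0.57 (SE 0.14, adjusted p = 0.0339) and 0.58 (SE 0.14, adjusted p = 0.0244). For both genes every condition 4 library was above every library of conditions 1, 2 and 3.

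**Figure D3:**
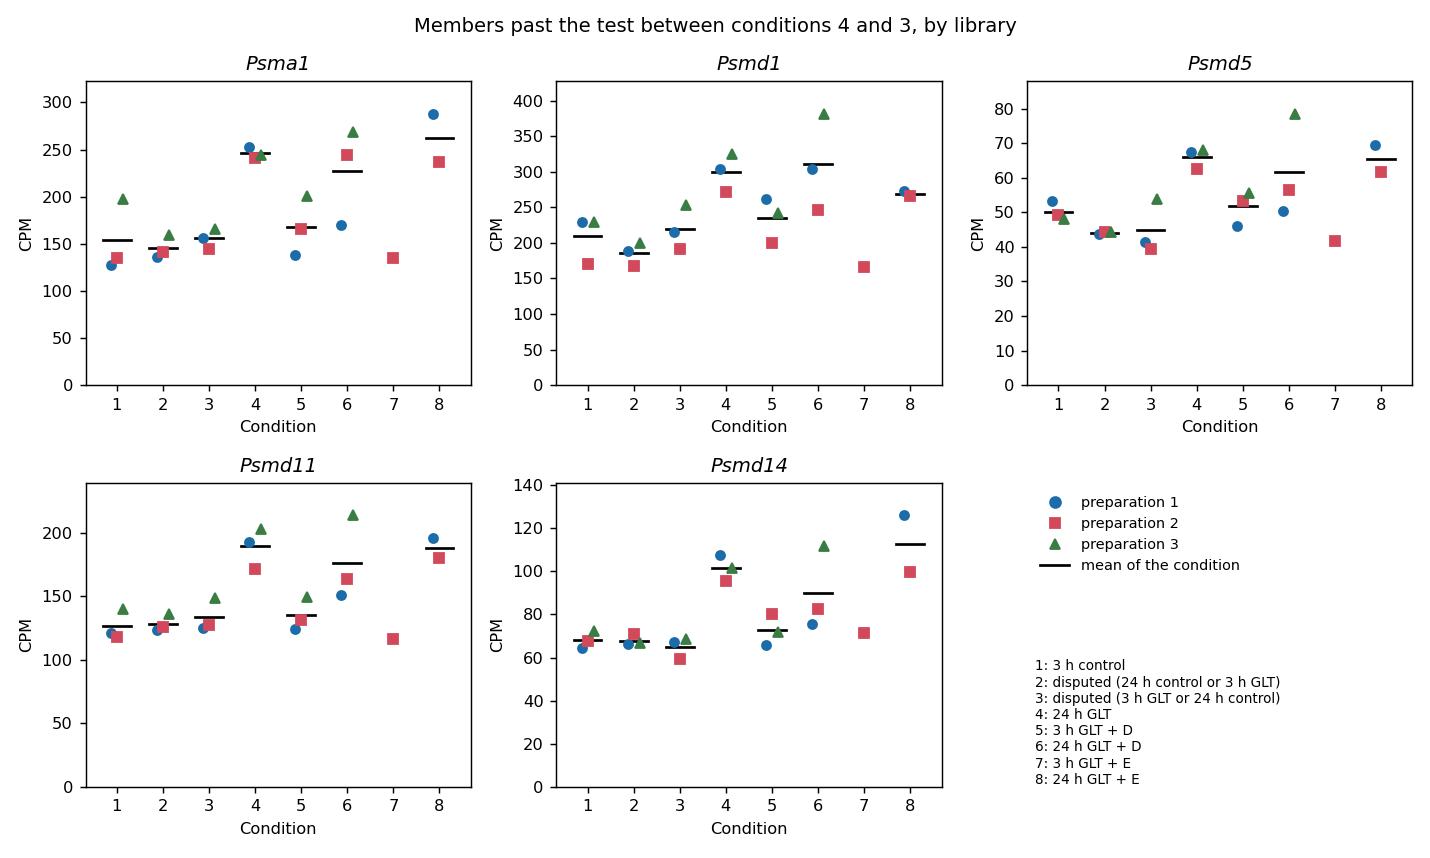
CPM of Psma1, Psmd1, Psmd5, Psmd11 and Psmd14 in each library by condition, with a colour and shape for each preparation and bars at the condition means. The condition 4 points lie above all points of conditions 1 to 3 in every panel, and the condition 6 points spread more widely, as for Psma1 from 170 to 268 CPM.

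The further 2 genes that passed against condition 2 were Psma3, another alpha subunit, which rose by 0.88 (SE 0.22, adjusted p = 0.0261), and Psmc6, an ATPase of the base, which rose by 0.50 (SE 0.13, adjusted p = 0.0315). Against condition 3 they differed by 0.36 (SE 0.22) and 0.43 (SE 0.13) without passing. Psma3 is uncertain because the table also lists the near-identical Psma3l, and reads shared by such a pair may not have been counted for either. Psmd12, a lid subunit chosen here after its values were seen, showed 0.57 (SE 0.16, adjusted p = 0.0501) against condition 3 and 0.52 (SE 0.16, adjusted p = 0.0598) against condition 2 without passing. Separation was broader than the calls: all 3 condition 4 libraries lay above all 3 of condition 3 in 27 members (14.4% of tested genes). They lay above all of condition 2 in 29, with the name-only Psmc3ip among them (16.2%), and above all 9 libraries of conditions 1 to 3 in 13 (4.41%). Without the condition 3 library of preparation 2 these counts were 28 for condition 3 (18.9%) and 13 for conditions 1 to 3 (4.9%).

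How many members passed depended on each preparation and library. Against condition 3, 0 passed with any 1 preparation left out, and 0 or 1 with any 1 library of either condition left out. The count was 0 without the preparation 2 library that stood apart, where the median was 0.31 and Psmd11 differed by 0.52. Calls over all tested genes fell too, from 5.97% in either direction to 0.121%, 3.65% and 0.727% without preparations 1, 2 and 3. With any 1 library left out they were 1.53% to 3.09%. Against condition 2, 0 passed without preparation 1 or preparation 3, 7 without preparation 2, and 1 to 4 with any 1 library of these conditions left out. Of all tested genes 8.52% were called with all libraries, and 0.169%, 9.8% and 0.671% without preparations 1, 2 and 3. With any 1 of these libraries left out the share was 2.42% to 4.53%.

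By role, the differences were spread over the whole particle. All 8 lid genes were higher in condition 4 in every preparation in both comparisons, with medians of 0.48 against condition 3 and 0.39 against condition 2. The alpha ring genes had medians of 0.37 and 0.44, with 7 of 7 and 6 of 7 above 0, and the 6 ATPase genes of the base had medians of 0.40 and 0.32, with 6 of 6 above 0 in each. For the 4 structural beta genes the medians were 0.37 and 0.27, and for the 3 other base genes, Psmd1, Psmd2 and the ubiquitin receptor gene Psmd4, they were 0.38 and 0.57. For the 3 chaperones of the base, Psmd5, Psmd9 and Psmd10, they were 0.55 and 0.24. The medians were 0.13 and 0.13 for the activators Psme1 to Psme4, and 0.15 and 0.27 for the core chaperones Psmg1, Psmg2 and Psmg4. Of these 7 genes 0 passed, where 5.97% and 8.52% of all tested genes did in either direction, so the count does not set them apart. Psmf1, a regulator that binds the core, showed 0.13 and 0.27.

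**Figure D4:**
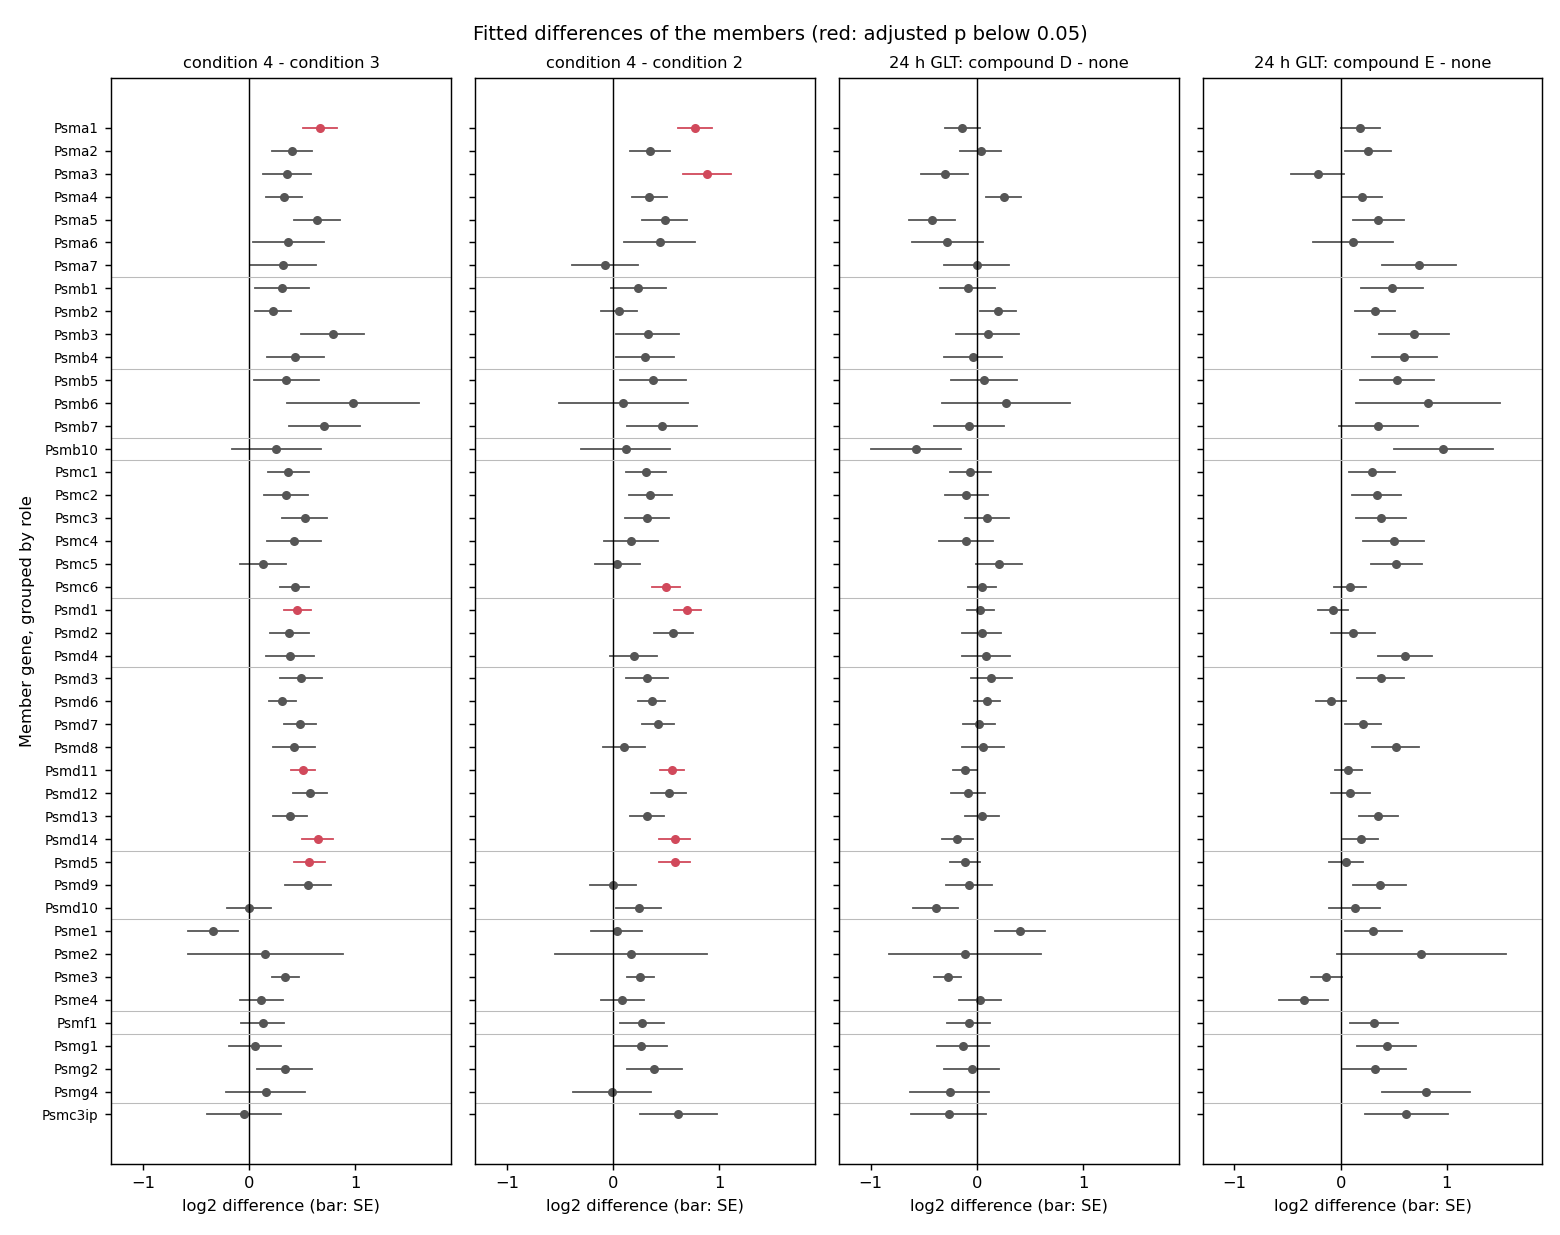
Fitted log2 differences of each member with bars of 1 SE, for condition 4 against conditions 3 and 2 and for compounds D and E against 24 h GLT alone, with red where the adjusted p was below 0.05. Red points, all above 0, occur in the first panel for 5 members and in the second for 7, while the compound panels hold none.

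Psmb5, Psmb6 and Psmb7 carry the cutting sites of the constitutive core, chymotrypsin-like, caspase-like and trypsin-like in that order. Psmb5 stood at 72.7, 104 and 76.9 CPM in condition 4, at 66.0, 61.9 and 67.0 CPM in condition 3 and at 65.5, 65.7 and 61.1 CPM in condition 2. Its groups did not overlap, but the spread in condition 4 was wide and the differences of 0.35 (SE 0.31) and 0.37 (SE 0.31) did not pass. Psmb7 stood at 127, 165 and 168 CPM in condition 4, at 116, 45.6 and 119 CPM in condition 3 and at 102, 114 and 117 CPM in condition 2, with differences of 0.70 (SE 0.33) and 0.46 (SE 0.33). Psmb6 stood at 40.8, 53.6 and 60.0 CPM in condition 4, against 37.1, 2.70 and 47.3 CPM in condition 3 and 43.9, 39.4 and 65.0 CPM in condition 2, with differences of 0.97 (SE 0.62) and 0.10 (SE 0.60). The low condition 3 values of Psmb6 and Psmb7 are both from the preparation 2 library that stood apart. None of the 3 genes passed in any of the 14 comparisons.

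Psmb10 takes the place of Psmb7 in the immunoproteasome, the form of the core that immune signals such as interferon induce, beside Psmb8 and Psmb9. It stood at 24.5, 22.8 and 20.4 CPM in condition 4, at 21.9, 15.0 and 20.8 CPM in condition 3 and at 21.1, 19.4 and 23.3 CPM in condition 2, so the groups overlapped, and the differences were 0.26 (SE 0.42) and 0.12 (SE 0.42). The highest value was in the 3 h control library of preparation 3, at 62.1 CPM against 11.6 and 17.4 CPM in preparations 1 and 2. That library was also the highest for Psmb8 (31.1 CPM, against 5.37 and 8.74) and for Psmb9 (21.9 CPM, against 3.74 and 6.69). Of a list of 10 immunoproteasome and antigen presentation genes, 9 were tested, and 0 passed in condition 4 against condition 3 or condition 2. Of all tested genes 5.97% and 8.52% passed, in either direction.

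Psme1 and Psme2 form the PA28 cap, an activator that opens the core without ATP and is also raised by interferon. Psme1 stood at 42.9, 50.2 and 63.2 CPM in condition 4, at 79.6, 40.1 and 81.5 CPM in condition 3 and at 46.7, 48.2 and 57.0 CPM in condition 2, and was the member with the lowest difference against condition 3, -0.34 (SE 0.24, not past the test). Psme2 ran from 33.5 to 42.0 CPM in condition 4, from 2.43 to 61.6 CPM in condition 3 and from 28.8 to 35.7 CPM in condition 2, with differences of 0.15 (SE 0.73) and 0.17 (SE 0.71). Against condition 2 the difference of Psme1 was 0.03 (SE 0.24). Psme3, the nuclear PA28 gene, stood at 83.7, 87.5 and 95 CPM in condition 4 against 73.4, 58.8 and 78.0 CPM in condition 3 and 70.9, 79.3 and 72.4 CPM in condition 2. It overlapped with neither, and its differences of 0.34 (SE 0.13) and 0.25 (SE 0.13) did not pass. Psme4, which encodes the large cap PA200, showed 0.11 (SE 0.20) against condition 3 and 0.09 (SE 0.20) against condition 2.

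**Figure D5:**
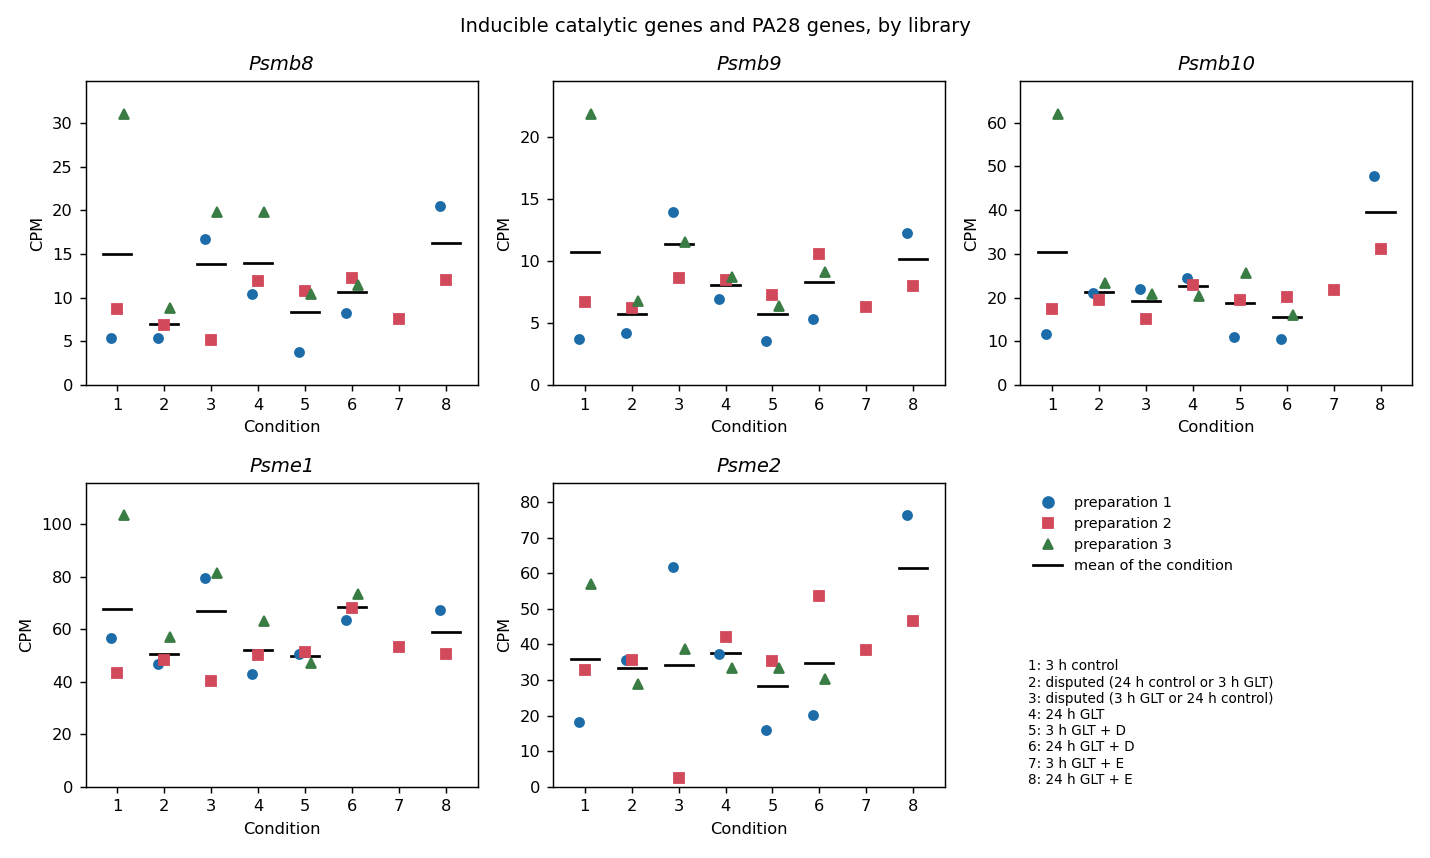
CPM of the inducible catalytic genes Psmb8, Psmb9 and Psmb10 and of the PA28 genes Psme1 and Psme2 in each library by condition, with bars at the condition means. The preparation 3 library of condition 1 is the highest point for Psmb8, Psmb9, Psmb10 and Psme1, and the preparation 2 library of condition 3 is the lowest for Psme1 and Psme2.

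Whether GLT acted differently at 24 h than at 3 h was tested as an interaction, which is the same contrast under both readings of conditions 2 and 3. No member passed (0 of 44, against 0.0318% of tested genes called higher), with 8 at an unadjusted p below 0.05 (8.35% of tested genes). DESeq2 called 3 members and 0.843% of tested genes. The median interaction was 0.37 on the log2 scale, with 42 of 44 above 0 (51.7% of tested genes) and 0.01 as the median of all tested genes. Without preparation 3 the members' median was 0.24. The smallest p was that of Psmd5, at 0.76 (SE 0.20, adjusted p = 0.240), which was higher in 3 of 3 preparations, and then of Psmd1, at 0.62 (SE 0.18, adjusted p = 0.267), also in 3 of 3.

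Against 3 h control, neither disputed group had a member past the test. In condition 2 the median over members was 0.03 (0 of 44 higher or lower, against 1.96% of tested genes called higher and 2.31% in either direction). In condition 3 it was -0.03 (0 of 44, against 0.254% and 0.692%). In each, 1 member had an unadjusted p below 0.05 (13.2% and 12.9% of tested genes). By the sample sheet the difference of condition 2 from 3 h control is the effect of 3 h GLT, by the sample records that of condition 3. The smallest p belonged to the name-only Psmc3ip in condition 2, at 1.00, 1.37 and 1.14 CPM against 1.19, 1.83 and 3.46 CPM in 3 h control (-0.86, SE 0.36, adjusted p = 0.298), followed by the lid gene Psmd6 (-0.22, SE 0.12). In condition 3 it was Psma3, at 25.9, 28.2 and 15.8 CPM against 17.1, 20.8 and 11.3 CPM (0.51, SE 0.22, adjusted p = 0.349), higher in 3 of 3 preparations, followed by the beta ring gene Psmb2 (-0.35, SE 0.17).

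Compound D at 3 h was measured in condition 5, and 0 members passed in any comparison of it with the groups named 3 h GLT or control. Against 3 h control the median was 0.05, with 0.0954% of tested genes called higher and 0.103% in either direction. Against condition 2, which is 3 h GLT by the sheet, the median was 0.01 (0.0636% of tested genes called higher, 0.493% in either direction). Against condition 3, which is 3 h GLT by the records, it was 0.10 (3.99% higher, 6.93% in either direction). Psmd10 encodes gankyrin, another chaperone of the base. It stood at 8.33, 12.8 and 13 CPM in condition 5, at 19.4, 19.7 and 15.6 CPM in condition 3, at 13.7, 17.4 and 15.6 CPM in condition 2 and at 9.08, 21 and 16.7 CPM in 3 h control. All 3 condition 5 values were below all of conditions 2 and 3, and the differences were -0.72 (SE 0.21, adjusted p = 0.0582) against condition 3, -0.47 (SE 0.21, adjusted p = 0.711) against condition 2 and -0.43 (SE 0.21, adjusted p = 0.789) against 3 h control, where the next smallest p was that of Psmc3ip (-0.57, SE 0.35). After Psmd10, the next smallest p against condition 3 was that of Psma3 (-0.46, SE 0.22). Against condition 2, Psmd1 differed by 0.34 (SE 0.13, adjusted p = 0.506) and Psmd6 by 0.28 (SE 0.12).

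Compound D at 24 h was compared with 24 h GLT alone, which both sources name alike. No member passed (0 of 44, against 1.96% of tested genes called higher and 2.12% lower), 1 had an unadjusted p below 0.05 (16.8% of tested genes), and the median was -0.06, with fitted differences from -0.57 to 0.41. The median was -0.23 without the condition 6 library of preparation 2 and 0.11 without that of preparation 1. Psma1 stood at 170, 244 and 268 CPM in preparations 1, 2 and 3 with compound D, against 253, 241 and 244 CPM without it, a difference of -0.14 with a 95% interval of -0.48 to 0.21. For Psmd11, at 151, 163 and 214 CPM against 193, 172 and 203 CPM, the difference was -0.12 (interval -0.36 to 0.13), and for Psmd1 it was 0.03 (interval -0.23 to 0.30). The preparations pointed different ways: Psma1, Psmd5, Psmd11 and Psmd14 were lower with compound D in preparation 1 and higher in preparation 3.

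Psme3 had the smallest p for compound D. It stood at 66.8, 78.3 and 74.8 CPM with the compound and 83.7, 87.5 and 95 CPM without it, lower in 3 of 3 preparations and without overlap, with a difference of -0.27 (SE 0.13, adjusted p = 0.289). Psma5, an alpha subunit, stood at 47.9, 74.8 and 78.2 CPM against 89.7, 82.5 and 92.9 CPM (-0.42, SE 0.21, adjusted p = 0.343). With Psmb10, at 10.5, 20.1 and 16.1 CPM, they were the 3 members whose 24 h GLT libraries all lay above those with compound D (8.86% of tested genes). The opposite held for the 3 genes Psma4, Psmb2 and Psme1 (9.77%).

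Islets kept 24 h in GLT with compound D were also compared with the other arms. Against 3 h of the same treatment, 42 of 44 members were above 0 (51.3% of tested genes) and 36 were higher in every preparation (28.1% of tested genes). The median was 0.30 (0.11 without the condition 6 library of preparation 2). Of the 44, 0 passed (3.07% of tested genes called higher, 6.11% in either direction), with 9 at an unadjusted p below 0.05 (22.2%). DESeq2 called 2 members and 10.5% of tested genes. Psmd11 stood at 151, 163 and 214 CPM after 24 h and at 125, 131 and 150 CPM after 3 h (0.37, SE 0.11, adjusted p = 0.0645), and Psmd1 differed by 0.39 (SE 0.13, adjusted p = 0.0807). Against condition 2, the 24 h control of the sample records, 8 members were higher and 0 lower (5.93% of tested genes called higher), with a median of 0.34, which was 0.09 without the condition 6 library of preparation 2. Psmd1 stood at 303, 246 and 382 CPM in condition 6 and rose by 0.73 (SE 0.13, adjusted p = 0.00192), Psmc6 by 0.55 (SE 0.13, adjusted p = 0.0148), Psmd11 by 0.44 (SE 0.11, adjusted p = 0.0193) and Psma1 by 0.63 (SE 0.16, adjusted p = 0.0197). Against condition 3, Psmd11 differed by 0.39 (SE 0.11, adjusted p = 0.135) and Psma1 by 0.53 (SE 0.16, adjusted p = 0.160). The other 4 of the 8 members that passed against condition 2 were Psma4, Psmd2, Psmd5 and Psmd6. The count of 8 was 0 without preparation 1 or preparation 3 (2.72% and 3.97% of tested genes called, against 12.5% with all libraries) and 6 without preparation 2 (13.4%). It was 1 or 2 without any 1 library of condition 2 (5.39% to 7.28%). Without the condition 6 library of preparation 1, 2 and 3 it was 10, 3 and 1 (9.25%, 10.4% and 8.61%). Against condition 3, the 24 h control of the sheet, 0 passed (0.461% of tested genes called higher, 0.716% in either direction), with 19 at an unadjusted p below 0.05 (12.3% of tested genes). The median was 0.40 (0.17 without preparation 2), and the smallest p belonged to Psmd1 (0.49, SE 0.13, adjusted p = 0.0960) and Psmc6 (0.47, SE 0.13, adjusted p = 0.123). DESeq2 called 6 members and 3.04% of tested genes here.

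Compound E at 24 h had 2 libraries, which differed from each other, and was compared with 24 h GLT alone. No member passed, as no tested gene did (0% called), 3 had an unadjusted p below 0.05 (6.46% of tested genes), and 39 of 44 were above 0 (53.3%) with a median of 0.33. The smallest p belonged to the ubiquitin receptor gene Psmd4, at 192 and 115 CPM in preparations 1 and 2 against 96.7 and 103 CPM in GLT alone (0.61, 95% interval 0.07 to 1.15, adjusted p = 0.566), and to the lid gene Psmd8, at 149 and 93.4 CPM against 84.2 and 85.3 CPM (0.52, interval 0.05 to 0.99). For each gene the difference was larger in preparation 1 (0.99 and 0.82) than in preparation 2 (0.15 and 0.13). The preparation 1 library had the lowest TMM factor of the series (0.682) and the highest member sum, and without TMM scaling the median over members was -0.11, where that over all tested genes was -0.36. Without the preparation 2 library of compound E 10 members passed, where 21.6% of tested genes did, and without preparation 2 as a whole 20 did, where 26% of tested genes did. The members' median was 0.64 in each, and both settings rest on the preparation 1 library alone.

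Against compound D at the same dose and time, compound E gave a median of 0.37 and 39 of 44 members above 0 (50.2% of tested genes). Of the members 0 passed the test (1.83% of tested genes called higher, 3.01% in either direction), with 6 at an unadjusted p below 0.05 (18.4%). DESeq2 called 2 members and 6.57% of tested genes. Psmb10 stood at 47.9 and 31.1 CPM with compound E and at 10.5, 20.1 and 16.1 CPM with compound D. The difference was 1.54 (SE 0.47, 95% interval 0.53 to 2.55, adjusted p = 0.0968). Psma5 stood at 117 and 95.2 CPM against 47.9, 74.8 and 78.2 CPM, a difference of 0.78 (SE 0.24, interval 0.26 to 1.29, adjusted p = 0.0980). Of the leading genes under GLT, Psmd11 differed by 0.19 (interval -0.09 to 0.46) and Psmd1 by -0.11 (interval -0.41 to 0.20). Without the preparation 2 library of compound E 14 members passed, where 22.3% of tested genes did, and without preparation 2 as a whole 27 did, where 36.4% of tested genes did, with a median of 0.80. Without preparation 1 the median was -0.13. The single 3 h library with compound E held 135 CPM of Psma1, 117 CPM of Psmd11, 71.2 CPM of Psmd14 and 21.8 CPM of Psmb10, and has no replicate.

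Members followed each other across libraries to different degrees. As a description over 21 libraries that share conditions, preparations and scaling, the log2 CPM of a member had a Pearson r with the mean of the other members of up to 0.95 (Psmb3), 0.94 (Psmc3) and 0.94 (Psmb4). The lowest were Psme1 (0.35) and Psme4 (-0.55), with Psma3 at 0.38 and Psmd1 at 0.42. Psme4 was highest in the 3 h compound D library of preparation 1 (278 CPM) and lowest in the 24 h compound E library of preparation 1 (134 CPM), the library with the highest member sum. After the condition and preparation terms were removed, the median r between pairs was 0.68 within the 20S genes (91 pairs), 0.54 within the 19S genes (136 pairs) and 0.59 between the sets (238 pairs), over 20 libraries.

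The ratio of core to cap transcripts varied within conditions. The ratio of summed 20S to summed 19S CPM ran from 0.533 to 0.788, and the condition means ran from 0.647 to 0.752. The 5 libraries under 0.6 came from preparations 1 and 3 of conditions 1, 3, 5 and 6, with TMM factors of 1.22 to 1.32 and insulin shares of 10% to 12.8%. Ribosomal Rn45s took 1.98% to 7.88% of their counts. In the other 16 the TMM factors were 0.682 to 1.26, the insulin shares 9.32% to 45.9% and the Rn45s shares 0.0333% to 5.72%. The part of scaling, of insulin content and of Rn45s in this ratio was not tested.

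Genes that work with the proteasome were counted in lists of their own, and no list was tested as a set. Of all tested genes, 3.31% were called higher in condition 4 than in condition 3, and 5.97% in either direction. Against condition 2 these shares were 3.63% and 8.52%. Lower with compound D at 24 h than in GLT alone were 2.12% of tested genes. Of 17 tested proteasome cofactors, Zfand2a, which encodes a stress-induced protein that binds the 19S particle, was the one that passed in condition 4 against condition 3: it stood at 219, 137 and 309 CPM against 74.9, 44.7 and 98.4 CPM and rose by 1.61 (SE 0.14, adjusted p = 2.5e-05). In condition 2 it stood at 161, 111 and 231 CPM, and the difference of 0.39 (SE 0.13) did not pass. With compound D at 24 h it stood at 152, 83.2 and 158 CPM and fell by 0.73 on the log2 scale (SE 0.13, adjusted p = 0.00804) against GLT alone, the single cofactor called in that comparison.

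Of 13 tested regulators of proteasome genes, 2 were higher in condition 4 than in condition 3: Mafk, a small Maf partner of the factors that bind the antioxidant response element, by 0.86 (SE 0.19, adjusted p = 0.0198), and Nfe2l2, one of those factors, by 0.49 (SE 0.12, adjusted p = 0.0300). Against condition 2 they differed by -0.15 (SE 0.19) and 0.16 (SE 0.12) without passing, Mafk standing at 70.6, 62.7 and 91.7 CPM in condition 4, 41.5, 39.9 and 39.9 CPM in condition 3 and 72.0, 71.6 and 107 CPM in condition 2. Of the 13, 1 was higher and 1 lower than in condition 2. Ngly1, whose product removes sugars from Nfe2l1, rose by 0.47 (SE 0.12, adjusted p = 0.0298), and against condition 3 it differed by 0.11 (SE 0.12). Ddi2, whose product cuts Nfe2l1 into its active form, stood at 59.8, 52.9 and 49.2 CPM in condition 4 and at 100, 74.9 and 93.0 CPM in condition 2, and fell by 0.72 on the log2 scale (SE 0.19, adjusted p = 0.0300). In condition 3 Ddi2 stood at 41.6, 37.1 and 38.3 CPM, below all 3 condition 4 libraries, and the difference had the other sign, 0.47 (SE 0.19, adjusted p = 0.159), without passing. With compound D at 24 h Ddi2 stood at 34.6, 23.4 and 34.8 CPM, below GLT alone by a log2 difference of -0.82 (SE 0.19, adjusted p = 0.0263). Nfe2l1 itself stood at 117, 145 and 175 CPM in condition 4, at 129, 101 and 192 CPM in condition 3 and at 130, 118 and 180 CPM in condition 2, which overlap.

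Upstream of the proteasome, 2 of 23 tested ubiquitin and p97 genes were higher in condition 4 than in condition 3 (3.31% of tested genes). They were the autophagy receptor gene Sqstm1, by 0.92 (SE 0.17, adjusted p = 0.00656), and the p97 adaptor gene Nploc4, by 0.48 (SE 0.13, adjusted p = 0.0465). Of the 23, 1 was higher than in condition 2 (3.63% of tested genes): Vcp, which encodes p97 itself, by 0.46 (SE 0.13, adjusted p = 0.0445). Sqstm1 and Nploc4 differed by 0.53 (SE 0.17, adjusted p = 0.0635) and 0.16 (SE 0.13) against condition 2, and Vcp by 0.27 (SE 0.13) against condition 3, without passing. Of 15 tested genes of degradation from the endoplasmic reticulum, Herpud1 (1.16), Ube2g2 (0.73) and Vimp (0.62) passed against condition 3, and Derl3 was lower against condition 2 (-0.94, SE 0.27, adjusted p = 0.0449). In the other comparison none of the 4 passed: Herpud1, Ube2g2 and Vimp differed by 0.07 (SE 0.24), 0.17 (SE 0.14) and -0.11 (SE 0.14) against condition 2, and Derl3 by -0.21 (SE 0.27) against condition 3. With compound D at 24 h, Derl3 (-1.38, SE 0.28, adjusted p = 0.0127) and Ube2g2 (-0.54, SE 0.14, adjusted p = 0.0495) were lower than in GLT alone. Of the 8 CCT chaperonin genes, a ring complex that is also built of many subunits, 0 passed against condition 3 and 3 against condition 2 (Cct2, Cct5 and Cct8, by 0.65, 0.54 and 0.66), with 8 of 8 above 0 in both and medians of 0.34 and 0.53. Against condition 3, Cct2, Cct5 and Cct8 differed by 0.25, 0.24 and 0.21. Of the 9 genes of the COP9 signalosome, whose subunits resemble those of the proteasome lid, 0 passed in either, with medians of 0.16 and 0.16.

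Markers of islet cells moved between the same libraries, where 5.97% of all tested genes were called in either direction against condition 3 and 8.52% against condition 2. Summed over 6 beta cell genes, levels were 79162 to 273652 CPM in condition 4, 106044 to 566650 CPM in condition 3 and 216678 to 511978 CPM in condition 2, with 0 of 6 higher and 1 (Iapp) lower against condition 3, and 3 lower (Iapp, Nkx6-1 and Pdx1) against condition 2. The 5 endothelial genes summed to 23.3 to 70.4, 56.5 to 87.2 and 156 to 180 CPM in conditions 4, 3 and 2, with 0 lower past the test against condition 3 and 3 against condition 2. The 5 stellate cell genes summed to 406 to 730, 1070 to 1247 and 325 to 394 CPM, with 1 lower against condition 3 (Col1a1), and 3 higher and 1 lower against condition 2. The 6 macrophage genes summed to 15.6 to 33.2, 29.5 to 47.5 and 21.9 to 33.2 CPM, with 0 past the test in either. The 4 alpha cell genes summed to 11537 to 22376, 14404 to 30247 and 10874 to 18176 CPM in conditions 4, 3 and 2. Of the 3 red cell genes 2 were tested, with 0 past the test against condition 3 and both lower against condition 2 (Hba-a2, -5.13, and Hbb, -5.03). Of the 3 delta cell, 1 PP cell, 7 acinar and 3 duct cell genes listed, 3, 1, 5 and 2 were tested. Of these, 0 passed in either comparison. In these groups the red cell gene Alas2 was at 0 in every library of conditions 3 and 4. The part of these shifts in the differences of the members was not tested.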

How the data were processed

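Per the labels' protocols, the 100 bp read pairs were aligned by TopHat2 2.0.3 (Bowtie2 2.0.0) on the rn5 genome and HTSeq then counted them by gene; the strand setting and the annotation are not given in the sources used here. The deposited values used here are raw counts per gene, and 5 entries that name no gene (among them no feature, 10.3% to 18.7% of reads) were left out. All 21 libraries entered 1 fit in edgeR 4.0.16 (R 4.3.3) with TMM scaling, filterByExpr (12576 genes tested) and terms for condition and preparation. The quasi-likelihood test was 2-sided, with Benjamini-Hochberg adjustment over all tested genes and a threshold of 0.05. CPM are TMM-scaled, and log2 differences are fitted values with standard errors (SE).

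The preparation is a block because the labels say that each pool of islets was divided over the conditions. Within preparations 1, 2 and 3 the residuals correlated by 0.0698, 0.183 and 0.425. Libraries of a group differed by more than counting error (lowest chi-square per degree of freedom 27.7), so none is a copy of another. Named were up to 4 members past the threshold per comparison by smallest adjusted p with 1 direction in every preparation, or the 2 with the smallest p where none passed, the 3 catalytic genes and Psmb10 in any case, and up to 3 genes past the threshold of each further list. Members and lists were chosen with earlier results of these data known. DESeq2 1.42.0 was an alternative. The script was tested on simulated data, in which 50 genes drawn from all 12576 were changed by each set fold. Of those set 1.5-fold higher, 2.04% were called between conditions 4 and 3 and 2.08% between conditions 6 and 4. Of those set 2-fold higher, 32.7% and 32% were called. The calls of the alpha cell marker list are not reported here.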

Additional observations from a re-analysis of the deposited data

How the results depend on the processing

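Counts are of the 44 members past the threshold, and percentages are of all tested genes past it in either direction. With library size in place of TMM, 2 members passed for condition 4 against condition 3 (5 as reported), where 2.32% of genes did. For condition 6 against condition 2 it was 13 (8 as reported), where 10.4% of genes did. That setting shifts all genes of a library together. It moved the median of all tested genes by more than 0.1 in several comparisons, among them condition 4 against condition 2, to 0.24, where the members' median was 0.58. The median of all tested genes was -0.36 for compound E against GLT and -0.39 for compound E against compound D. Members' medians also moved, to -0.25 for condition 2 against condition 1 (0.03 as reported) and 0.32 for condition 5 against condition 2 (0.01). They were 0.25 for condition 5 against condition 3 (0.10), 0.55 for condition 6 against condition 2 (0.34) and 0.73 for the interaction (0.37). DESeq2 gave 8 for condition 4 against condition 3 (10.2% of genes) and 11 for condition 4 against condition 2 (7 as reported, 12.6% of genes). For 5 comparisons with 0 as reported, DESeq2 called members. It gave 6 for condition 6 against condition 3 (3.04%) and 2 for condition 6 against condition 5 (10.5%). It gave 2 for compound E against compound D (6.57%), 3 for the interaction (0.843%) and 1, lower, for condition 5 against condition 3 (11.3%). With the conditions compared alone in the fit, the counts were 1 and 23 for condition 4 against conditions 3 and 2, where 3.1% and 28.3% of genes passed. They were 0 for condition 6 against condition 2 (6.24%) and 13 for condition 6 against condition 5 (16.2%).

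Without the replicate block, that is without pairing by preparation, 1 member passed for condition 4 against condition 3 (2.43% of tested genes). For condition 6 against condition 2, 3 passed (8.23%). The block changed no other count by over 1.5 times. Leaving out 1 library or preparation gave 0 to 1 for condition 4 against condition 3, 0 to 7 against condition 2, 0 to 10 for condition 6 against condition 2, 0 to 1 for condition 6 against condition 5, 0 to 20 for compound E against GLT and 0 to 27 for compound E against compound D, a lone remaining library being assumed to vary like the others. Over all tested genes the shares called in these leave-out settings ran from 0.121% to 3.65% for condition 4 against condition 3 and from 0.169% to 9.8% against condition 2. They ran from 2.72% to 13.4% for condition 6 against condition 2 and from 0.0723% to 6.4% for condition 6 against condition 5. Another minimum on counts moved no count by over 1.5 times. Among the named members, 246 values kept direction and side of the threshold, 50 lost the call, 14 gained it and 0 reversed. Most named members had not passed in their comparison, so many of the 246 are values that stayed without a call. Of the settings without 1 library, only that without the condition 3 library of preparation 2 entered these counts. The medians for condition 4 stayed between 0.30 and 0.46 against condition 3 and between 0.29 and 0.58 against condition 2, while those for compound E against GLT ran from -0.11 to 0.64. With 2 or 3 libraries a group, small differences may be missed.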
